A study of Mus musculus with 60 samples.

Results

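The mitochondrial genome of mouse embryonic stem cells (mESC) carries 37 genes, and all of them were measured in 60 RNA sequencing libraries from a study of histone recycling at the replication fork. The genes were chosen by name alone, as every gene whose GENCODE symbol on mm10 begins with mt-, and all 37 were found in both deposited count tables among 56633 features (55487 genes and 1146 repeat subfamilies). They comprise 13 messenger RNAs, 2 ribosomal RNAs (rRNA) and 22 transfer RNAs (tRNA). The cells were E14JU mESC of 129/Ola origin in which POLE4, a subunit of the leading strand polymerase, carried a dTAG degron, so that every group of the study, controls included, carried the tag. The first line held POLE4-dTAG alone (called WT here) and the second line also held the MCM2-2A mutation, which weakens histone binding by the MCM2 helicase subunit (called 2A). Because a single clone of each line was used, the mutation and the clone cannot be told apart. Cells received DMSO (Ctrl) or dTAG at 1 µM (dPOLE4, POLE4 depleted) for 24 h in serum with LIF (T0), and were then moved to retinoic acid (RA) without LIF for 12 h (T12), 24 h (T24) or 60 h (T60). These times follow the sample titles and the study's methods, while the treatment protocol in the labels names T24, T48 and T60. A separate experiment treated both lines for 96 h in serum with LIF. Each of the 20 groups had 3 libraries, which the study describes as biological replicates.

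Mitochondrial DNA is a small circle that is transcribed from both strands into long precursors. The precursors are cut at the tRNAs that punctuate them, which releases the messenger RNAs and rRNAs. A nucleus-encoded polymerase (Polrmt) with the factors Tfam and Tfb2m makes these transcripts, and the Lrpprc and Slirp proteins keep the messenger RNAs stable. The messenger RNAs encode core subunits of respiratory complexes I, III and IV and of the ATP synthase, while the remaining subunits, and every subunit of complex II, come from nuclear genes. Stem cells leaving pluripotency are known for a change in how much they rely on respiration.

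By the annotated strand, 12 of the messenger RNAs (the heavy-strand transcripts), both rRNAs and 14 tRNAs lie in one direction. The light-strand transcripts are mt-Nd6 and 8 tRNAs (mt-Tq, mt-Ta, mt-Tn, mt-Tc, mt-Ty, mt-Ts1, mt-Te and mt-Tp). Of the messenger RNAs, 7 encode complex I (mt-Nd1, mt-Nd2, mt-Nd3, mt-Nd4, mt-Nd4l, mt-Nd5 and mt-Nd6), 1 encodes complex III (mt-Cytb), 3 encode complex IV (mt-Co1, mt-Co2 and mt-Co3) and 2 encode ATP synthase subunits (mt-Atp6 and mt-Atp8). A few sequences are shown because the results below turn on them, read 5′ to 3′ from GENCODE transcripts of GRCm38. The first set is the pair of tRNA genes with the strongest opposite changes under RA, mt-Tf for phenylalanine (chrM:1-68, + strand) and mt-Te for glutamic acid (chrM:14071-14139, - strand), with the anticodon in capitals.
mt-Tf: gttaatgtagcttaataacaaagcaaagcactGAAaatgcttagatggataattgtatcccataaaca
mt-Te: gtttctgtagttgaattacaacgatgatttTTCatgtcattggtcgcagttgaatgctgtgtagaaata

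The second set is the last 60 bases of mt-Nd5 (chrM:13506-13565, + strand) and of mt-Nd6 (chrM:13552-13611, - strand), which face each other. Capitals mark the 14 bases that the ends of these genes share on opposite strands.
mt-Nd5: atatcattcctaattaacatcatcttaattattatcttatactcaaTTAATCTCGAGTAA
mt-Nd6: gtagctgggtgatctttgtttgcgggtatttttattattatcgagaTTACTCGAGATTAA

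The third set is mt-Atp8 (chrM:7766-7969, + strand), whose last 43 bases, in capitals, are also the first 43 of mt-Atp6, so reads there could not be given to a single gene.
mt-Atp8: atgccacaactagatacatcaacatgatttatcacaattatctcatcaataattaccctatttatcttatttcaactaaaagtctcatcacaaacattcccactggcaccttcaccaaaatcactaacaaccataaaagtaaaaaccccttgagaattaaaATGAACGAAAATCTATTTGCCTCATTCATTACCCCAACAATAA

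The fourth set shows why some members are measured poorly. A stretch of nuclear chromosome 1 (chr1:24611535-24616197, - strand) holds annotated pseudogenes that repeat part of the mitochondrial genome almost base for base. Gm10925 matched mt-Atp6 at 678 of 678 aligned bases, Gm28661 matched mt-Co2 at 681 of 681, Gm28437 matched mt-Co3 at 783 of 783 and Gm10222 matched mt-Nd4l at 294 of 294. Gm28438 matched mt-Nd3 at 344 of 345 bases, and the single difference, T3C from the mitochondrial gene to the pseudogene with positions counted from the first base of the gene, is in capitals in the first 60 bases of mt-Nd3 (chrM:9459-9518, + strand) and of Gm28438 (chr1:24613060-24613119, - strand).
mt-Nd3: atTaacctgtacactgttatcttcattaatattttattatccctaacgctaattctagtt
Gm28438: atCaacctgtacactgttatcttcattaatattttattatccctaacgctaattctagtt

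Reads from these genes can hardly be told from reads of their copies, and the sources used here do not state how shared reads were divided. Of the counts on each gene and its copy together, the copy held a median over 60 libraries of 95.1% for mt-Nd3, 83.6% for mt-Nd4l, 70.4% for mt-Co3, 68.9% for mt-Atp6 and 59.2% for mt-Co2. The values of these 5 genes are therefore uncertain. Calls of them between RA times and between backgrounds are also given with the counts of the copy added. This setting was chosen with the data in view and was not combined with the replicate block. The pseudogenes Gm28439 and Gm29216, near-identical to parts of mt-Nd4 and mt-Co1, held 1701 and 1423 counts over all libraries and were of little weight. The 7 messenger RNAs described below as having no abundant copy are mt-Nd1, mt-Nd2, mt-Nd4, mt-Nd5, mt-Nd6, mt-Co1 and mt-Cytb. mt-Atp8 is in neither set. It lies between mt-Co2 and mt-Atp6, whose copies are in the chromosome 1 stretch, and Gm10925 matched it at 43 of 43 aligned bases. No copy was added for mt-Atp8, and its values are uncertain too.

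**Figure D1:**
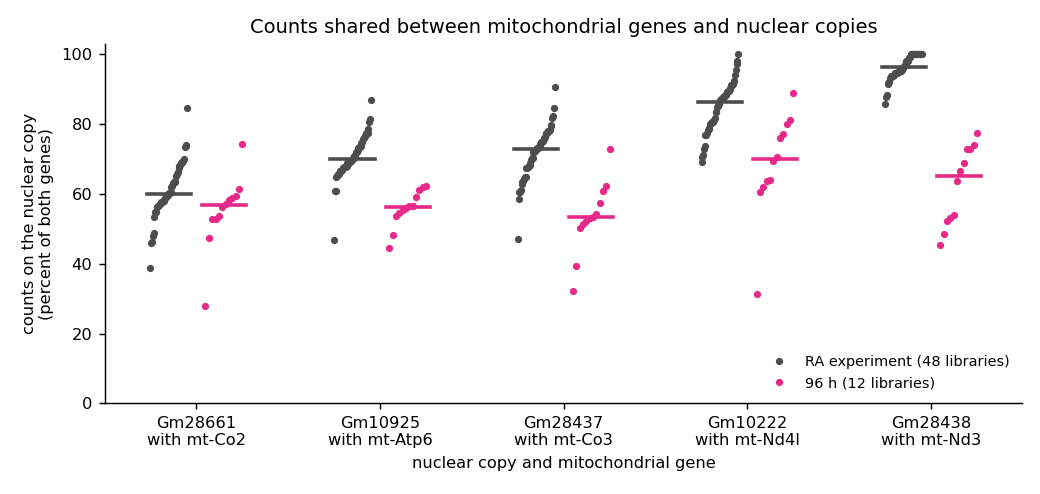
Share of the counts on a mitochondrial gene and its chromosome 1 copy that fell on the copy (percent, vertical axis), for 5 genes. Each point is a library, sorted by value within its gene, and the bar is the median. The medians run from 59.2% for mt-Co2 to 95.1% for mt-Nd3.

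In units of 1e6 reads, the 48 libraries of the T0 and RA experiment had total counts from 10.46 to 46.61, and the 12 of the 96 h experiment had totals from 7.126 to 23.6. The 2 tables were normalized separately. Degradation by dTAG and the MCM2-2A mutation act on protein, so RNA cannot check those labels, and Pole4 RNA stood at 52.4 ± 2.28 CPM (counts scaled to a common library size after TMM normalization, SD, n = 3) in WT Ctrl T0 and at 52.4 ± 4.92 in WT dPOLE4 T0. It stood at 33.1 ± 1.03 CPM in 2A Ctrl T0 and 31.3 ± 2.94 in 2A dPOLE4 T0, and Mcm2 RNA at 497 ± 10.7 CPM in WT Ctrl T0 and 311 ± 34.2 in 2A Ctrl T0. As markers of the labelled cell type, 8 stem cell genes summed to between 3655.7 and 4299.6 CPM in the 12 T0 libraries and to between 323.82 and 1163.7 CPM at T60. Over the same times, 6 fibroblast or feeder genes went from between 31.1 and 65.8 to between 68.5 and 512 CPM, 5 primitive endoderm genes from between 5.53 and 26.1 to between 144 and 349 CPM, 5 neural genes from between 45.1 and 151 to between 152 and 318 CPM, and 4 mesoderm genes from between 9.34 and 54.4 to between 4.47 and 14.7 CPM. No marker was at 0 in every library. These sums thus moved with RA time, but not every marker followed its sum. Mean Thy1, a fibroblast or feeder gene, went from 26.8 CPM in 2A Ctrl T0 to 5.86 at T60. The neural genes Pax6 and Sox1 went in 2A dPOLE4 from 3.11 and 2.06 CPM at T0 to 2.42 and 1.19 at T60. Nes, also neural, went from 110.5 to 270.3 CPM in WT Ctrl. The part of culture makeup in the results below was not tested. In bulk RNA, fewer cells of a type and less RNA per cell cannot be told apart.

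Mitochondrial transcripts were a small share of each library, and their levels spanned a wide range. The 13 messenger RNAs together held between 0.515% and 1.40% of a library's counts in the T0 and RA experiment (median 1.01%) and between 0.942% and 1.57% at 96 h. The 2 rRNAs, left after rRNA depletion of the RNA, held between 0.143% and 1.92% (median 1.02%) and between 0.220% and 0.814% in the same order. The 22 tRNAs held at most 0.00885% in any library, in libraries that were not made for short RNA.

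Per kb of gene length, mt-Rnr2, the large rRNA, had the highest mean level in the T0 and RA experiment, with 5098 CPM per kb. It was followed by mt-Co1, the catalytic subunit of complex IV, with 2454, mt-Nd1 with 1433, mt-Rnr1, the small rRNA, with 1270.2 and mt-Cytb with 1104 CPM per kb. A middle group ran from mt-Nd2 (591 CPM per kb) over mt-Atp8 (543), mt-Nd4 (534), mt-Co2 (490.2), mt-Nd5 (490.1) and mt-Atp6 (434) to mt-Co3 (222) and mt-Nd6 (213). At the bottom stood mt-Nd4l with 34.8 and mt-Nd3 with 7.22 CPM per kb, and these are the genes with the largest shares on a nuclear copy. At 96 h mt-Rnr2 (3276 CPM per kb), mt-Co1 (2961) and mt-Nd1 (1976) again led, while mt-Rnr1 stood at 412 CPM per kb, between mt-Atp8 (493) and mt-Co3 (409.8).

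Most heavy-strand messenger RNAs without a copy moved together from library to library. Within groups of the T0 and RA experiment, log2 levels had an SD of 0.41 for mt-Nd5, 0.45 for mt-Nd2, 0.37 for mt-Cytb and 0.35 for mt-Nd1. The SD of the log2 ratio of these genes to mt-Nd4 was smaller, at 0.06, 0.07, 0.09 and 0.11 in the same order. For mt-Nd6, on the other strand, the SD was 0.30 for the level and 0.53 for the ratio to mt-Nd4. For mt-Co1 these SDs were 0.29 and 0.17. Of the heavy-strand genes with a copy, the SD of the ratio was 0.34 for mt-Co2 and 0.42 for mt-Co3, beside 0.46 and 0.56 for their levels, and mt-Nd4l and mt-Nd3 varied about as much in the ratio (1.45 and 2.71) as in the level (1.53 and 2.83).

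Among the tRNAs, mt-Tl1 for leucine, next to mt-Rnr2, had the highest mean level in the T0 and RA experiment (12.8 CPM), followed by mt-Tw for tryptophan (7.70 CPM) and mt-Ti for isoleucine (5.95 CPM). The lowest were mt-Tr, at 0 in 45 of 48 libraries, mt-Tg, at 0 in 38 of 48, and mt-Td, at 0 in 17 of 48. All of these lie between mt-Co1 and mt-Nd4, among the genes with copies on chromosome 1. The part of these copies in the low counts was not tested. Between 24 and 28 of the 37 members passed the filter on low counts in a comparison, and the 9 to 13 that did not were tRNAs or mt-Nd3.

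**Figure D2:**
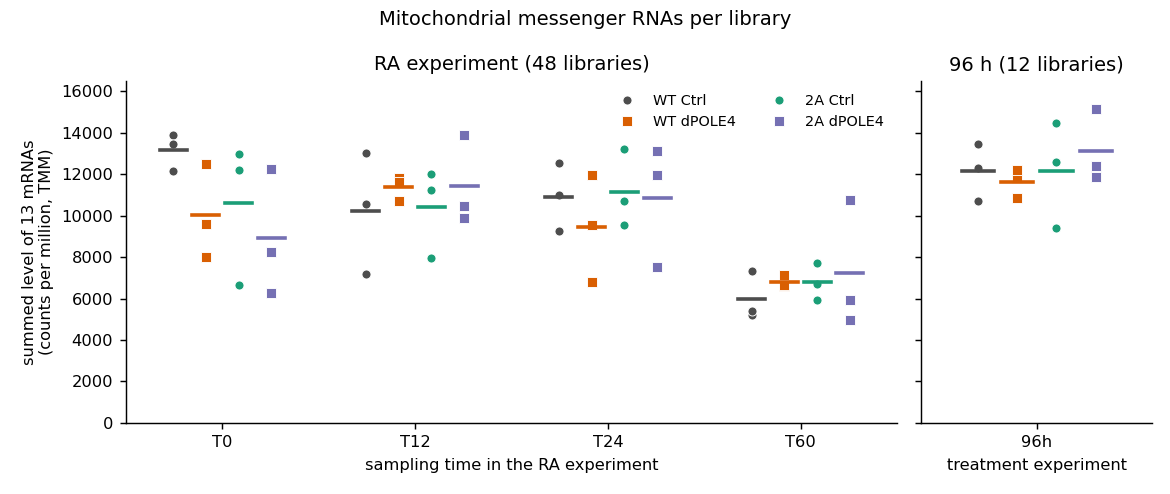
Summed level of the 13 messenger RNAs (CPM, vertical axis from 0) in each of the 60 libraries, by group. Points are libraries and the line is the mean of 3, with the 96 h experiment set apart because it was normalized on its own. In WT Ctrl the T60 libraries sit between 5224 and 7311 CPM and the T0 libraries between 12156 and 13872 CPM.

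After 60 h of RA, Ctrl cells of the WT background had lower levels of nearly all mitochondrial messenger RNAs. The 13 messenger RNAs summed to 12156, 13872 and 13476 CPM in the 3 WT Ctrl T0 libraries and to 5224, 7311 and 5402 CPM at T60. Every T60 library was below every T0 library, and the mean fell to 0.449 of the T0 level (log2 ratio -1.15, SD 0.29). Of the 13, 10 fell by edgeR's quasi-likelihood test with Benjamini-Hochberg adjustment over all features (adjusted p below 0.01 and a log2 fold change larger in size than 0.58, called below). In the same comparison 23.7% of the 18082 features tested were called lower and 50.6% in either direction. The median log2 fold change of the 13 was -1.10, and that of all features tested was -0.01.

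The complex I messenger RNA mt-Nd1 stood at 1639, 1976 and 1953 CPM at T0 and at 517, 776 and 552 CPM at T60 in WT Ctrl (log2 fold change -1.61, SE 0.13, adjusted p = 2.17e-08). For mt-Nd2 the levels were 753, 885 and 876 CPM and then 262, 410.0 and 270.5 CPM (-1.43). mt-Nd4 went from 899, 999 and 935 CPM to 401, 578 and 396 CPM (-1.06). The groups did not overlap in any of these genes. How many of all features had groups without overlap was not counted, here or elsewhere. Lack of overlap therefore does not set a member apart from other features. mt-Nd5 changed by -1.06 as well, from between 1039 and 1187 CPM to between 489 and 658 CPM. The remaining complex I genes were not called, and mt-Nd4l (-0.81, adjusted p = 0.0452) and mt-Nd3 (-2.01, adjusted p = 0.0196) rest on few counts. mt-Nd6, the light-strand gene, had a positive log2 fold change of 0.41 (SE 0.08, adjusted p = 0.000181), below the fold cutoff.

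Complex III and complex IV genes moved likewise in WT Ctrl. mt-Cytb, which encodes cytochrome b, was at 1452, 1654 and 1673 CPM at T0 and at 652, 912 and 674 CPM at T60 (-1.11, SE 0.11). mt-Co1 was at 5061, 5670.3 and 5573 CPM and then at 2313, 3044 and 2366 CPM (-1.10, SE 0.10, adjusted p = 1.23e-07). Again every T60 library lay below every T0 library. mt-Co2 changed by -1.48 (SE 0.27) and mt-Co3 by -0.99 (SE 0.10), and with their copies added the values were -1.13 and -1.04, both called. Of the ATP synthase genes, mt-Atp8 went from 123, 188 and 158 CPM to 34.8, 72.2 and 34.3 CPM (-1.76, SE 0.22, adjusted p = 3.07e-06). mt-Atp6 changed by -0.85 (SE 0.15), or by -0.95 with its copy added. For mt-Atp8 no copy was added.

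In the other arms fewer messenger RNAs were called at T60, and the medians of the 13 were -0.58 in WT dPOLE4, -0.72 in 2A Ctrl and -0.17 in 2A dPOLE4. The last of these lay between -0.77 and 0.14 when a library was left out and was above 0 without T0 replicate 3, T60 replicate 1 or T60 replicate 2. In WT dPOLE4 the sum was 8022, 12513 and 9579 CPM at T0 and 7154, 6586 and 6672 CPM at T60. In 2A Ctrl it was 6646, 12968 and 12219 CPM and then 5934, 7692 and 6707 CPM, and in 2A dPOLE4 6286, 8265 and 12259 CPM and then 5921, 4983 and 10743 CPM. The groups did not overlap in WT dPOLE4 and overlapped in both 2A arms. Of the 13 genes, 4 fell in WT dPOLE4 (mt-Nd1 -1.06, mt-Nd2 -0.71, mt-Co3 -0.70 and mt-Nd4l -0.99), where 22.5% of all features tested were called lower and 48.1% in either direction. In 2A Ctrl 5 fell and 1 rose, against 21.2% of features lower, 26.3% higher and 47.5% in either direction. The 5 were mt-Nd1 (-1.14), mt-Nd2 (-0.89), mt-Co2 (-0.72), mt-Nd4l (-1.88) and mt-Nd3, which had 357 counts at T0 and 0 at T60 and was at least 113-fold lower against a floor of 3 counts over the group. With the copy added, the log2 fold change of mt-Nd3 there was -1.05 (adjusted p = 0.000531). In 2A dPOLE4 mt-Nd3 alone was called (-3.22, adjusted p = 0.00439), against 19.3% of features called lower and 42.2% in either direction, and with its copy added no messenger RNA was called. With the copies added, mt-Nd4l was still called in WT dPOLE4 (-0.79) and 2A Ctrl (-0.99), while mt-Co3 in WT dPOLE4 (-0.38) and mt-Co2 in 2A Ctrl (-0.50) were not. The same alternative called mt-Nd3 in WT dPOLE4 (-0.83) and mt-Atp6 in 2A Ctrl (-0.60).

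Some genes missed the fold cutoff by little, and 1 library often set the count. mt-Co1 in WT dPOLE4 had a log2 fold change of -0.58 with adjusted p = 7.26e-05 and, before rounding, was just short of the cutoff. At adjusted p below 0.05 with no fold cutoff, 11 of 13 genes passed in WT dPOLE4 and 11 in 2A Ctrl, beside 74.9% and 73.4% of all features. Without replicate 1 of WT dPOLE4 T0 the count of called genes rose from 4 to 10, and without replicate 2 it was 2. Without replicate 1 of 2A Ctrl T0 it went from 6 to 12. Without replicate 3 of 2A dPOLE4 T60 it went from 1 to 5, without T0 replicate 1 to 2, and without T0 replicate 2 or T60 replicate 2 to 0. Among the 7 messenger RNAs with no abundant copy, the medians were -1.10 in WT Ctrl, -0.54 in WT dPOLE4, -0.52 in 2A Ctrl and -0.34 in 2A dPOLE4, and 6, 2, 2 and 0 of them were called lower. Of the 12 heavy-strand genes, 12, 12, 11 and 10 had negative values in the same order. The T60 comparisons of an arm share no libraries with those of another arm.

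**Figure D3:**
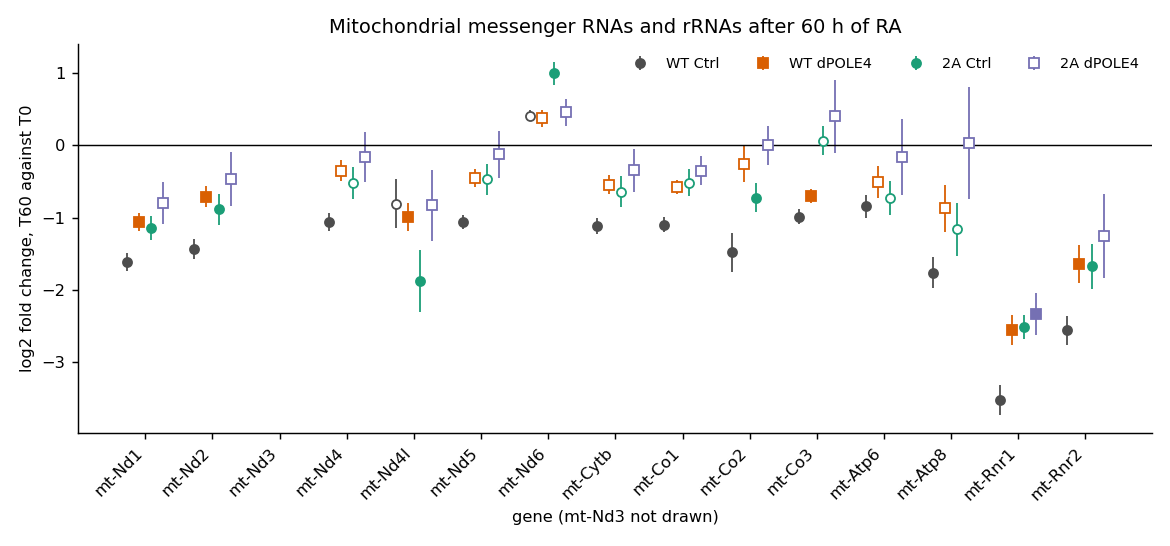
Log2 fold change from T0 to T60 of RA (vertical axis) of the messenger RNAs and rRNAs in the 4 arms. Points are edgeR estimates, bars are SE, filled points passed the test, and mt-Nd3 is not drawn. Apart from mt-Nd6 in every arm and mt-Co3 in the 2A arms and mt-Atp8 in 2A dPOLE4 (0.03), points lie below 0, and mt-Rnr1 lies lowest, at -3.52 in WT Ctrl.

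The difference between backgrounds was tested directly, as the change by T60 in 2A Ctrl minus that in WT Ctrl. It was called for 1 of 28 members tested (3.57%), against 9.10% of all features. This was mt-Co3, with a difference of 1.02 (SE 0.27, adjusted p = 0.00984). mt-Co3 stood at 273, 271 and 281 CPM in WT Ctrl T0 and at 118, 172 and 133 CPM at T60, whereas in 2A Ctrl it stood at 124, 119 and 216 CPM at T0 and at 146, 197 and 135 CPM at T60 (log2 fold change 0.06, SE 0.20, adjusted p = 0.79). The groups overlapped in 2A and not in WT. The call was lost with the counts of the copy Gm28437 added, and it was lost in 8 of 12 fits that left out a library. For the 13 messenger RNAs the median difference was 0.52 and 11 were positive, but no other member was called, and mt-Rnr1 gave 0.97 (adjusted p = 0.0263). The same difference in dPOLE4 cells was called by edgeR for 0 of 28 members (8.22% of all features), of which 0 had an unadjusted p below 0.05, and DESeq2 also called 0. Whether the change under RA differed between dPOLE4 and Ctrl was not tested.

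The light-strand messenger RNA mt-Nd6 did not follow the heavy strand. Per 1000 counts on heavy-strand messenger RNAs, mt-Nd6 had 10.8, 8.998 and 8.02 counts in WT Ctrl T0 and 34.4, 21.0 and 30.8 at T60. In WT dPOLE4 these values were 18.8, 9.63 and 9.95 at T0 and 24.5, 23.1 and 23.7 at T60, and in 2A Ctrl they were 8.46, 7.62 and 6.16 and then 29.9, 16.7 and 23.0. The T60 libraries were above the T0 libraries in these 3 arms. In 2A dPOLE4 the values overlapped, at 23.9, 11.6 and 7.15 and then 32.6, 26.5 and 13.3. The level of mt-Nd6 itself rose in 2A Ctrl, from 55.7, 98.1 and 74.8 CPM to 172, 126 and 151 CPM (log2 fold change 1.00, SE 0.16, adjusted p = 9.29e-05). It was not called in WT dPOLE4 (0.37) or 2A dPOLE4 (0.45). The sources used here do not state whether reads were counted by strand. Without that, reads of mt-Nd6 and of RNA from the opposite strand at the same place cannot be told apart.

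The light-strand tRNA mt-Te, printed above, rose in all 4 arms, and mt-Tf, the first gene of the heavy-strand rRNA unit, fell in all 4. mt-Te had 14, 9 and 14 counts in WT Ctrl T0 and 27, 26 and 21 at T60 in smaller libraries. Its log2 fold changes were 1.53 in WT Ctrl (SE 0.31, adjusted p = 0.000355), 1.53 in WT dPOLE4, 1.82 in 2A Ctrl and 1.59 in 2A dPOLE4 (adjusted p = 0.0039). mt-Te lies next to mt-Nd6 on the same strand. mt-Tf had 169, 176 and 260 counts in WT Ctrl T0 and 1, 2 and 0 at T60. In 2A dPOLE4 it had 20, 62 and 443 counts at T0 and 2, 1 and 6 at T60. The groups did not overlap in either arm, and the log2 fold changes were -6.99, -6.37, -5.70 and -5.17 from WT Ctrl to 2A dPOLE4. At 96 h in serum with LIF, mt-Tf had 14, 13 and 22 counts in WT Ctrl, fewer than at T0 in libraries of similar size, in a table normalized on its own.

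Other tRNAs on the heavy strand were lower at T60 as well. In WT Ctrl 9 of 13 tRNAs tested fell and 1 rose. Besides mt-Tf those that fell were mt-Tv (-2.37), mt-Tt (-2.36), mt-Ti (-1.89), mt-Tw (-1.82), mt-Tl1 (-1.63), mt-Tm (-1.44), mt-Tl2 (-1.16) and mt-Tq (-0.89), of which mt-Tq is on the light strand. The light-strand mt-Ts1 (-0.45) and mt-Tp (-1.01, adjusted p = 0.0312) and the heavy-strand mt-Th (-0.87, adjusted p = 0.0123) were not called. mt-Tl1 stood at 16.9, 19.7 and 26.8 CPM at T0 and at 5.96, 8.77 and 6.33 CPM at T60. In the other arms, 6 of 12 tRNAs tested fell in WT dPOLE4 (mt-Tf, mt-Tl1, mt-Ti, mt-Tm, mt-Tw and mt-Tp), 3 of 12 in 2A Ctrl (mt-Tf, mt-Tl1 and mt-Tm) and 1 of 12, mt-Tf, in 2A dPOLE4, and mt-Te was the 1 that rose in each. Many of these calls were lost when a library was left out, in 6 fits per comparison. In WT Ctrl this held for mt-Tl2 in 5 fits and mt-Tq in 4, in WT dPOLE4 for mt-Ti in 5, mt-Tw in 4, mt-Tm in 3 and mt-Tp in 1, in 2A Ctrl for mt-Tl1 in 5 and mt-Tm in 4, and in 2A dPOLE4 for mt-Te in 2, without replicate 1 of T0 or of T60. The share of all features called lower was 23.7% in WT Ctrl, 22.5% in WT dPOLE4, 21.2% in 2A Ctrl and 19.3% in 2A dPOLE4. In the 2A arms the counts of tRNAs that fell were thus near or below the share of all features. The share called higher was 26.9%, 25.6%, 26.3% and 23% in the same order. Fragments of tRNAs inside unprocessed precursors and mature tRNAs are not distinguished by these counts.

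**Figure D4:**
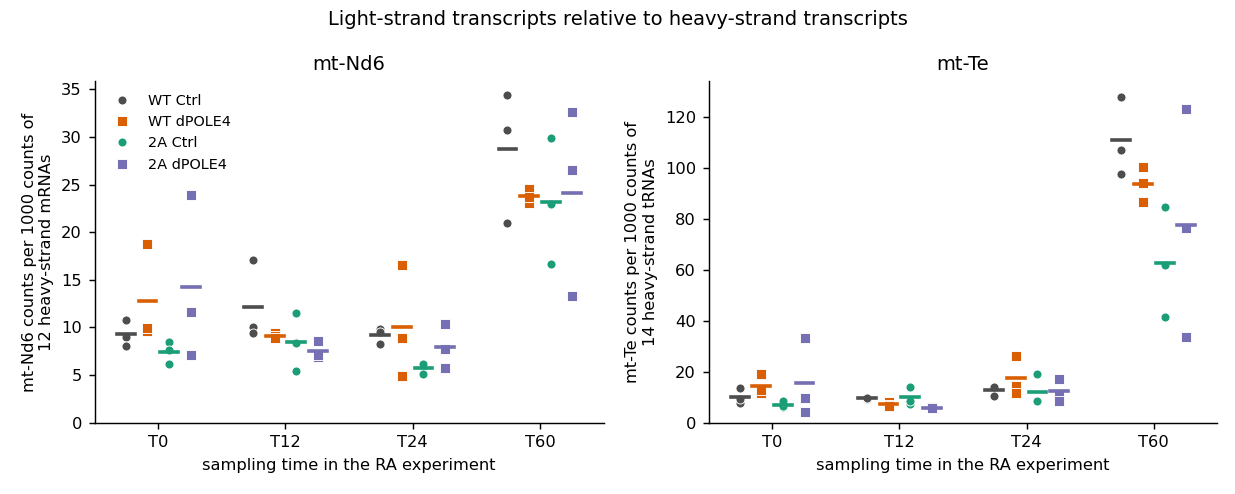
Counts of the light-strand mt-Nd6 per 1000 counts of heavy-strand messenger RNA, and of mt-Te per 1000 counts of heavy-strand tRNA, in each library by group. In WT Ctrl, mt-Te goes from between 7.77 and 13.6 at T0 to between 97.7 and 128 at T60, with no overlap.

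In WT Ctrl the rRNAs, which form the core of the mitochondrial ribosome, had more negative values at T60 than any messenger RNA. mt-Rnr1 stood at 1746, 1669 and 3218 CPM in WT Ctrl T0 and at 167, 228 and 192 CPM at T60, a log2 fold change of -3.52 (SE 0.21, adjusted p = 7.78e-10). It fell in the other arms too, by 2.55 on the log2 scale in WT dPOLE4, by 2.51 in 2A Ctrl and by 2.33 in 2A dPOLE4 (adjusted p = 2.14e-05), and the groups did not overlap in any arm. mt-Rnr2 stood at 11353, 13403 and 14482 CPM in WT Ctrl T0 and at 1721, 3263 and 1755 CPM at T60 (-2.56, SE 0.20). Its values were -1.64 in WT dPOLE4, -1.67 in 2A Ctrl and -1.25 in 2A dPOLE4, where it was not called (adjusted p = 0.0729) and the libraries overlapped. Per messenger RNA count, the 2 rRNAs had 1.08, 1.09 and 1.31 counts in WT Ctrl T0 and 0.361, 0.477 and 0.360 at T60.

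These rRNA levels are what rRNA depletion left, and other measures of rRNA are given beside them. Nuclear genes annotated as rRNA held 0.424%, 0.277% and 0.294% of counts in WT Ctrl T0 and 0.583%, 0.429% and 0.550% at T60, so this share was higher at T60 while mt-Rnr1 and mt-Rnr2 were lower. The counts of mt-Rnr2 per count of mt-Rnr1 were 6.50, 8.03 and 4.50 at T0 and 10.3, 14.3 and 9.14 at T60. At 96 h this ratio was 15.5, 14.8 and 18.1 in WT Ctrl, with mt-Rnr1 at 472, 416 and 435 CPM. The part of depletion in the rRNA results was not tested.

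Within the first day of RA the share of members called was below that of all features in every arm. In WT Ctrl an unadjusted p below 0.05 was found for 10 of 28 members at T12 and 16 of 28 at T24. Of all features, this held for 7597 of 17673 and 10909 of 18350. It held for 9 of 28 members in WT dPOLE4 and 5 of 27 in 2A dPOLE4 at T12, and for 3 of 27 in 2A Ctrl at T24. At T12 edgeR called 2 of 28 members tested in WT Ctrl (7.14%, with 11.3% of all features called), the tRNAs mt-Tw (-0.93, adjusted p = 0.0046) and mt-Ts1 (-1.05). In WT dPOLE4 it called mt-Rnr1 (1.14, adjusted p = 0.000485) and mt-Tf (0.99), 2 of 28 with 11.7% of features called. In 2A dPOLE4 it called mt-Rnr1 (1.25, adjusted p = 0.00391), 1 of 27 with 7.79% of features called. mt-Rnr1 rose in WT dPOLE4 from 708, 1565 and 1045 CPM at T0 to 2670.4, 2397 and 2270.3 CPM at T12, and in 2A dPOLE4 from 626, 797 and 1362 to 2136, 1718 and 2741 CPM, without overlap. In fits that left out 1 library, mt-Rnr1 in 2A dPOLE4 lost its call without T0 replicate 2, T12 replicate 1 or T12 replicate 3, mt-Tw in WT Ctrl without T0 replicate 2 or 3 or T12 replicate 1, and mt-Ts1 in 5 of 6. In 2A Ctrl 0 of 27 members were called by edgeR (8.65% of features), 1 had an unadjusted p below 0.05, and DESeq2 called 0. The medians of the 13 messenger RNAs at T12 were -0.37 in WT Ctrl, 0.21 in WT dPOLE4, 0.03 in 2A Ctrl and 0.44 in 2A dPOLE4. No messenger RNA was called by edgeR at T12 in any arm, but without T12 replicate 3 of WT Ctrl 5 were, without T0 replicate 2 of WT dPOLE4 3 and without T0 replicate 1 of WT dPOLE4 2, and without T0 replicate 3 of 2A dPOLE4 6.

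At T24, mt-Co3 went in opposite directions in the Ctrl cells of the 2 backgrounds. In WT Ctrl it was at 147, 164 and 193 CPM, below all 3 T0 libraries (-0.71, adjusted p = 8.97e-07). In 2A Ctrl it was at 263, 245 and 308 CPM, above all 3 T0 libraries (0.84, adjusted p = 0.00145). The difference between these changes was not tested. With the counts of Gm28437 added neither was called (-0.19 and 0.26). In WT Ctrl the tRNAs mt-Tf (-1.08), mt-Tv (-1.40), mt-Tl1 (-0.59), mt-Tw (-0.82) and mt-Th (-0.85) fell too, so that 6 of 28 members were called (21.4%, with 21.8% of all features called). In 6 fits that each left out 1 library of this comparison, the calls of mt-Tl1 and mt-Tv were lost in 4 and that of mt-Th in 3. In 2A Ctrl mt-Co3 was the 1 of 27 (23.9% of features), and it was not called without T24 replicate 3. In WT dPOLE4 (19.2% of features) and 2A dPOLE4 (19.6%) 0 of 28 and 0 of 27 members were called by edgeR, 1 and 3 had an unadjusted p below 0.05, and DESeq2 called 0 in both. Without T0 replicate 3 of 2A dPOLE4, 4 messenger RNAs were called.

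The Ctrl cells of the 2 backgrounds differed in few mitochondrial transcripts. At T0, 3 of 27 members were called between 2A and WT (11.1%, with 18.9% of all features called). mt-Rnr1 was lower in 2A Ctrl, at 666, 1082 and 1134 CPM against 1746, 1669 and 3218 CPM in WT Ctrl (-1.21, SE 0.25, adjusted p = 0.00175). mt-Co3 (-0.85, SE 0.18, adjusted p = 0.00243) and mt-Nd6 (-0.68, SE 0.16, adjusted p = 0.00432) were lower as well. DESeq2 called neither (adjusted p = 0.016 and 0.0262), and with the counts of Gm28437 added mt-Co3 was at -0.27 and was not called. mt-Nd6 stood at 55.7, 98.1 and 74.8 CPM in 2A and at 130.2, 124 and 107 CPM in WT. None of these 3 genes had overlapping groups, and how many of all features also had none was not counted. The messenger RNA count fell from 2 to 1 when any WT Ctrl T0 library or 2A Ctrl T0 replicate 1 or 3 was left out. The other messenger RNAs had values between -0.53 for mt-Co1 (adjusted p = 0.0435) and 1.04 for mt-Nd3, and mt-Rnr2 was at -0.71 (adjusted p = 0.0333).

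mt-Nd6 was lower in 2A at T24 as well, at 56.0, 54.2 and 81.6 CPM against 107, 87.3 and 102.6 CPM (-0.63, SE 0.11, adjusted p = 0.000235). mt-Co3 was higher there (0.72, SE 0.09, adjusted p = 2.87e-06), and these were the 2 of 27 members called at T24 (7.41%, with 17.3% of all features called). With the copy added mt-Co3 was at 0.17 and was not called, and DESeq2 did not call mt-Nd6 (adjusted p = 0.0151). Without replicate 1 of either group, 1 messenger RNA was called. At T12, T60 and 96 h unpaired edgeR fits called 0 of 27, 0 of 25 and 0 of 27 members (14.5%, 16.9% and 15.7% of features). In the same order 1, 6 and 1 members had an unadjusted p below 0.05, and DESeq2 called 0. At T60 the count of messenger RNAs was 1 without WT Ctrl replicate 1 and 2 without replicate 2, at T12 it was 1 without 2A Ctrl replicate 3, and at 96 h it was 1 without 2A Ctrl replicate 1.

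In the unpaired edgeR fits with the filter on low counts, no mitochondrial transcript passed both thresholds between dPOLE4 and Ctrl. In 5 comparisons of dPOLE4 with Ctrl in WT and 5 in 2A, edgeR called 0 members, and DESeq2 called 1, mt-Rnr2 in WT at 96 h (-0.67), where it called 0.172% of features. The share of all features that edgeR called in WT was 0% at T0, T12, T24 and 96 h and 0.193% at T60. In 2A it was 0.0715% at T0, 0.404% at T12, 1.02% at T24, 2.25% at T60 and 0.304% at 96 h. The number of members with an unadjusted p below 0.05 was 14 of 28, 3 of 27, 0 of 27, 4 of 24 and 6 of 27 in WT, in the order T0, T12, T24, T60 and 96 h. In 2A it was 1, 4, 4 and 1 of 27, 27, 27 and 25 at T0 to T60, and 1 of 27 at 96 h.

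The 14 members at T0 in WT were 9 messenger RNAs, both rRNAs and the tRNAs mt-Tf, mt-Tl1 and mt-Tl2. All 13 messenger RNAs had negative values there, from -0.90 for mt-Atp8 to -0.01 for mt-Nd6, with a median of -0.43 beside a median of 0.00 over all features, of which 2069 of 17792 had an unadjusted p below 0.05. mt-Co3 was at 273, 271 and 281 CPM in Ctrl and at 153, 214 and 165 CPM in dPOLE4 (-0.64, SE 0.10, adjusted p = 0.177), and these groups did not overlap. mt-Atp8 was at 123, 188 and 158 CPM in Ctrl and at 33.7, 142 and 75.3 CPM in dPOLE4, with overlap. mt-Nd1 (-0.40), mt-Nd2 (-0.51), mt-Nd4 (-0.45), mt-Nd5 (-0.45), mt-Cytb (-0.37), mt-Co1 (-0.35), mt-Co2 (-0.43) and mt-Atp6 (-0.46) had similar values, and mt-Nd3 and mt-Nd4l were at -0.04. The rRNAs mt-Rnr1 and mt-Rnr2 were at -1.005 and -0.81. The sum of the 13 was 8022 CPM in replicate 1 of dPOLE4, 12513 in replicate 2 and 9579 in replicate 3, and without replicate 2 of dPOLE4, 2 messenger RNAs were called. The nuclear genes named as subunits of complexes I to V had a median of 0.05 at T0 in WT, and edgeR called 0 of 82.

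Same-numbered libraries deviated together in some of these comparisons, so the fits with the replicate number as a block are given beside them. In WT at T0 the blocked fit called mt-Atp8 (-1.05, SE 0.16, adjusted p = 0.00729) and mt-Co3 (-0.65, SE 0.07, adjusted p = 0.00338), where 6 of 17792 features were called (0.0337%). In WT at 96 h it called mt-Atp8 (-0.64, adjusted p = 1.47e-06), mt-Rnr2 (-0.67, adjusted p = 3.39e-07) and the tRNA mt-Ti (-0.65), where 142 of 17580 features were called (0.808%). mt-Rnr2 was at 7311, 6135 and 7855 CPM in Ctrl and at 5220, 4074 and 4051 CPM in dPOLE4 at 96 h, and every dPOLE4 library was lower. In 2A at T0 the blocked fit called mt-Co2 (-0.72), mt-Atp8 (-0.95) and mt-Atp6 (-0.62), where 143 of 18171 features were called (0.787%). In 2A at 96 h it called 0 members, where 307 of 17421 features were called (1.76%). At T0 in 2A, mt-Atp8 was at 59.03, 150.4 and 159 CPM in Ctrl and at 16.0, 55.9 and 159 CPM in dPOLE4, so that the change lay in replicates 1 and 2. The values of mt-Co2, mt-Co3, mt-Atp6 and mt-Atp8 are uncertain because of the chromosome 1 stretch. The block was not fitted with the counts of the copies added, so whether these calls would remain was not tested.

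The effect of POLE4 depletion did not differ detectably between backgrounds in any member. The difference between 2A and WT was called by unpaired edgeR fits for 0 members at each of the 5 times. At these times 1, 1, 3, 0 and 1 members had an unadjusted p below 0.05, and DESeq2 called 0. Of all features, 0.00526%, 0.0159%, 0.0351%, 0.1% and 0% were called at T0, T12, T24, T60 and 96 h. The medians of the 13 messenger RNAs for dPOLE4 against Ctrl were -0.43, 0.19, -0.21, 0.18 and -0.11 in WT and -0.26, 0.20, -0.01, 0.11 and 0.11 in 2A, in the same order.

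**Figure D5:**
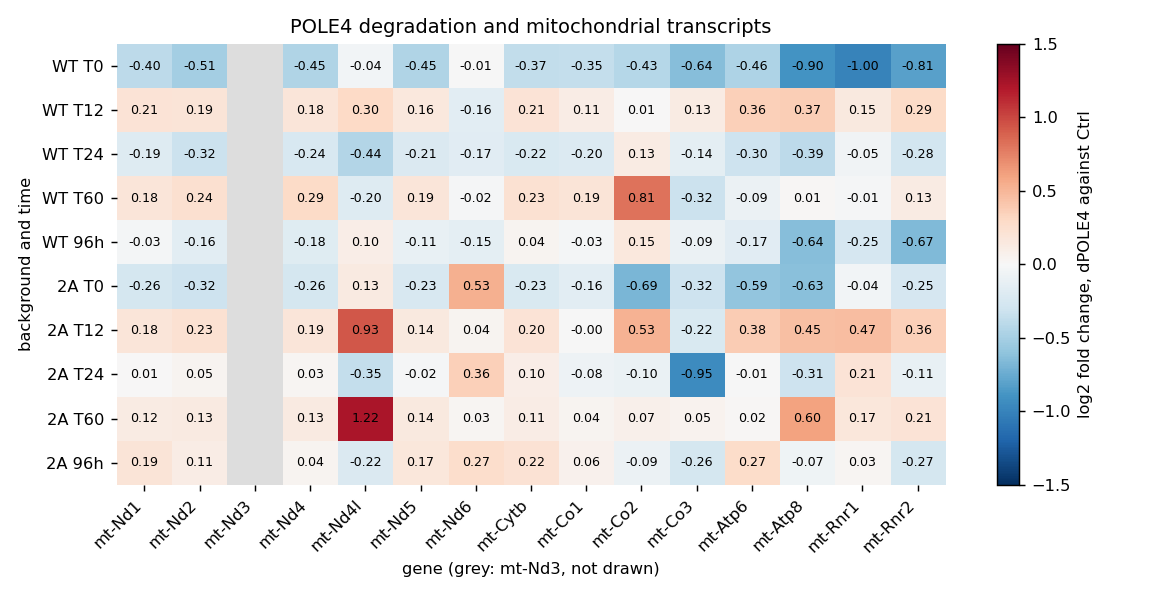
Log2 fold change of dPOLE4 against Ctrl for the messenger RNAs and rRNAs in the 10 comparisons, as a colour with the value written in each cell (mt-Nd3 in grey, not drawn). No cell passed the unpaired edgeR test, and the WT T0 row runs from -1.005 for mt-Rnr1 to -0.01 for mt-Nd6.

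Nuclear genes that serve mitochondria are given as lists for the T60 comparison in WT Ctrl, since their products act on or with the members. Of 82 nuclear genes tested that are named as subunits of complexes I to V, 3 rose and 8 fell (median -0.24). This list was picked by gene name and may hold genes that are not subunits. Atp5g1 fell by 1.27 on the log2 scale, Uqcr10 by 0.68 and Cox5a by 0.65, while Cox4i2 rose by 4.09, Ndufa13 by 0.68 and Cox7a2l by 0.59. Of 78 mitochondrial ribosomal protein genes, 1 rose and 32 fell (median -0.52), with Mrpl35 (-1.48), Mrpl36 (-1.35) and Mrpl47 (-1.34) in front. The lists thus differ in how many of their members fell, beside 23.7% of all features, and no test of a list was made.

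Of 17 genes for transcription and replication of mitochondrial DNA, 6 fell and 0 rose in WT Ctrl (median -0.48), beside 23.7% of all features called lower. Among those that fell were Mgme1 and Tefm (-1.13 each), Ssbp1 (-0.83) and Tfb2m (-0.72). Tfam, which packages mitochondrial DNA and starts transcription, was at 74.3, 74.5 and 78.4 CPM at T0 and at 55.1, 49.8 and 52.6 CPM at T60. Its log2 fold change was -0.55 and missed the fold cutoff, and Polrmt, the polymerase, stood at -0.08 (adjusted p = 0.344). In the other arms Tfam fell, with -0.61 in WT dPOLE4, -0.64 in 2A Ctrl and -0.59 in 2A dPOLE4.

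Of 26 genes for processing and stability of mitochondrial RNA, 15 fell and 0 rose in WT Ctrl (median -0.68), beside 23.7% of all features called lower. Elac2, which cuts precursors at the ends of tRNAs, fell by 1.40 (adjusted p = 5.77e-11), and Fastkd5, Ptcd3, Fastkd2 and Pnpt1 fell by between 1.27 and 1.17. Lrpprc was at 189, 188 and 188 CPM at T0 and at 98.3, 92.7 and 92.1 CPM at T60 (-1.02, adjusted p = 3.84e-10). Slirp, its partner, fell by 0.96. Lrpprc and Slirp fell in all 4 arms, with values between -1.05 and -0.72. In the lists for regulators of biogenesis and for the mitochondrial stress response, 4 of 8 and 10 of 15 fell in WT Ctrl and 0 rose, among them Ppargc1b (-1.26), Chac1 (-2.91), Trib3 (-2.61) and Gdf15 (-2.50).

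In the other arms the counts of these lists varied. Nuclear genes named as subunits of complexes I to V fell in 16 of 83, 9 of 82 and 8 of 84 tested in WT dPOLE4, 2A Ctrl and 2A dPOLE4. Mitochondrial ribosomal protein genes fell in 46, 49 and 39 of 78. Processing genes fell in 18, 14 and 13 of 26. Of all features tested, 22.5%, 21.2% and 19.3% were called lower in these arms, in the same order. For dPOLE4 against Ctrl, log2 fold changes of Tfam, Polrmt, Tfb2m, Lrpprc and Slirp lay between -0.27 and 0.12 in the 10 comparisons.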

How the data were processed

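Total RNA was depleted of rRNA and made into strand-specific paired-end libraries by the authors. The deposited values are raw read counts per gene and per repeat subfamily. Per the labels and the study's methods, the authors trimmed reads with cutadapt 4.2, aligned them with STAR to mm10 (GRCm38) with multiply aligned reads kept, and counted them with TEcount on GENCODE genes and a repeat annotation, without normalization or pooling. Whether counting used the strand and how shared reads were divided are not given in the sources used here. The members and lists were chosen with earlier results of these data known.

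From the counts, edgeR 4.0.16 (limma 3.58.1, R 4.3.3) was run on the libraries of each of 34 comparisons, with filterByExpr (minimum count 10, total 15), TMM over all features, the quasi-likelihood F test and Benjamini-Hochberg adjustment over all features tested. The authors named DESeq2. DESeq2 1.42.0 served here as an alternative, with the thresholds of the study (adjusted p below 0.01, log2 fold change larger in size than 0.58). CPM are TMM scaled. Symbols and positions came from a GENCODE annotation of GRCm38 and sequences from its transcripts, and nuclear copies were found with blastn 2.17.0. Named were all 13 messenger RNAs and 2 rRNAs, tRNAs that were called or had the 3 highest or 3 lowest mean counts, and, from fixed nuclear lists, called genes with the largest change, at most 6 per list, beside Tfam, Polrmt, Tfb2m, Lrpprc and Slirp. A list of rRNA features fixed beforehand had 0 members in the tables, and the share of nuclear genes annotated as rRNA was used in its place. Of the processing list, 26 symbols were found.

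Groups share replicate numbers. Deviations of same-numbered libraries from their group mean correlated above 0.1 in all 3 pairs for dPOLE4 against Ctrl in WT (mean r 0.169 at T0 and 0.252 at 96 h) and in 2A (0.261 and 0.274), and at 96 h for 2A against WT (0.176) and for the difference of the dPOLE4 effect (0.193). In these comparisons the numbers were judged to pair libraries. The main fits of all comparisons, and the counts of members called in them, were nevertheless unpaired. Results with the block are given as an alternative, for all members only for dPOLE4 against Ctrl. Alternatives were DESeq2, its size factors in edgeR, scaling on nuclear features, leaving the filter out, asking for 10 counts or more in each library, a block for the replicate number, adjusted p below 0.05 with no fold cutoff, and each library left out. Levels were also computed without TMM and as shares of gene counts. Tested on simulated data made from WT Ctrl T60 against T0 (18082 features), edgeR recovered 76.1% of 1.5-fold, 98.5% of 2-fold and 100% of 4-fold changes. Recovery here meant adjusted p below 0.01 alone, without the fold cutoff. The median fitted size of the 1.5-fold changes was 0.551, below that cutoff. The changed features were drawn from those with higher counts, so recovery of members with few counts was not tested. Only 67, 67 and 66 features were changed by 1.5-fold, 2-fold and 4-fold, while 50.6% were called in the real comparison. Recovery under so wide a change was not tested. Standard errors include counting error and the spread between replicates.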

Additional observations from a re-analysis of the deposited data

Results flagged for a closer look

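The change of mt-Co3 from T0 to T60 of RA differed between the Ctrl cells of the 2 backgrounds, by the test of the difference itself (2A minus WT 1.02 on the log2 scale, SE 0.27, adjusted p = 0.00984 by edgeR with Benjamini-Hochberg adjustment). Every WT Ctrl library was lower at T60 than at T0, while in 2A Ctrl the T0 and T60 libraries overlapped. The difference kept its side of the threshold in 4 of 7 alternatives and lost it in 3, and it was lost in 8 of 12 fits without a library. With the counts of the chromosome 1 copy Gm28437 added to mt-Co3 it was not called. Over 60 libraries that copy held a median of 70.4% of the counts of the pair, and how reads were divided between the copies was not tested.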

How the results depend on the processing

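The counts below are numbers of the 13 messenger RNAs called, with the value of the report in parentheses. With DESeq2 they were, for 2A against WT, 0 at T0 (2) and 1 at T24 (2), and for RA, 0 at T24 in 2A Ctrl (1), 0 at T60 in 2A dPOLE4 (1) and 0 for the T60 difference 2A minus WT in Ctrl (1). With at least 10 counts in every library, T60 in 2A dPOLE4 gave 0 (1) and the T60 difference in Ctrl 0 (1). With the nuclear copies added, 2A against WT gave 1 at T0 (2) and 1 at T24 (2), RA T24 gave 0 in WT Ctrl and 0 in 2A Ctrl (1 each), and T60 in 2A dPOLE4 and the T60 difference in Ctrl gave 0 (1 each).

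At adjusted p below 0.05 with no fold cutoff, dPOLE4 in 2A gave 1 at T24 (0) and 2A against WT gave 1 at T12, 4 at T60 and 1 at 96 h (0 each). RA T12 gave 2 in WT Ctrl and 3 in WT dPOLE4 (0 each), RA T24 gave 6 in WT Ctrl (1) and 1 in 2A dPOLE4 (0), RA T60 gave 11 in WT dPOLE4 (4), 11 in 2A Ctrl (6) and 3 in 2A dPOLE4 (1), and the T60 difference in Ctrl gave 3 (1).

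With no filter on low counts, dPOLE4 against Ctrl gave 2 at T0, 1 at T12, 1 at T60 and 1 at 96 h in WT, and 3 at T0, 2 at T12, 1 at T24 and 3 at T60 in 2A (0 each). 2A against WT gave 1 at T12 and 2 at T60 (0 each). RA T12 gave 1 in WT Ctrl, 3 in WT dPOLE4, 1 in 2A Ctrl and 4 in 2A dPOLE4 (0 each), RA T24 gave 1 in WT dPOLE4 (0), 2 in 2A Ctrl (1) and 3 in 2A dPOLE4 (0), and RA T60 gave 7 in WT dPOLE4 (4) and 3 in 2A dPOLE4 (1). The difference of the dPOLE4 effect gave 1 at T12, 1 at T24, 3 at T60 and 1 at 96 h (0 each), and the T60 difference gave 8 in Ctrl (1) and 2 in dPOLE4 (0). The cause was not tested for any of these.

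With the replicate block, dPOLE4 against Ctrl gave 2 in WT at T0, 1 in WT at 96 h, 3 in 2A at T0 and 1 in 2A at T24 (0 each). The numbers were judged to pair there except at T24. The block gave 1 for 2A against WT at T60 (0), 3 for RA T12 in WT dPOLE4 (0), 4 in 2A dPOLE4 (0) and 2 for RA T60 in 2A dPOLE4 (1). In all of these comparisons the numbers were not judged to pair. It moved no other count of messenger RNAs by over 1.5 times.

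Leaving out each library in turn, the lowest and highest counts were 0 and 2 for dPOLE4 in WT at T0, 0 and 1 in 2A at T24, and 0 and 1 in 2A at T60. For 2A against WT they were 1 and 2 at T0, 0 and 1 at T12, 1 and 3 at T24, 0 and 2 at T60 and 0 and 1 at 96 h. For RA T12 they were 0 and 5 in WT Ctrl, 0 and 3 in WT dPOLE4 and 0 and 6 in 2A dPOLE4. For RA T24 they were 1 and 2 in WT Ctrl, 0 and 1 in 2A Ctrl and 0 and 4 in 2A dPOLE4. For RA T60 they were 10 and 12 in WT Ctrl, 2 and 10 in WT dPOLE4, 4 and 12 in 2A Ctrl and 0 and 5 in 2A dPOLE4, and for the T60 difference in Ctrl 0 and 1. The moves for dPOLE4 in 2A came without dPOLE4 T24 replicate 2 or 3 and without dPOLE4 T60 replicate 3, and that of RA T24 in WT Ctrl without T24 replicate 3.

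No called value of a named gene changed direction. The T60 to T0 ratio of the summed messenger RNAs moved by less than 1 SD in all 16 alternatives of scaling and denominator. Leaving out 1 of 3 libraries cannot move a group mean by 1 SD, so ranges are given for those fits. The log2 ratio ran from -1.307 to -1.065 in WT Ctrl and from -0.687 to -0.367 in WT dPOLE4. It ran from -0.901 to -0.419 in 2A Ctrl and from -0.664 to -0.08 in 2A dPOLE4. The medians of the 13 moved by less than the spread between replicates in 272 of 272 alternatives. They did so in 246 of 246 fits without a library, where that limit is loose for the same reason, and medians near 0 could change sign. Named genes kept their call in 434 alternatives and lost it in 35, and lost it in 86 fits without a library. mt-Rnr1 at T60 kept its call in every alternative that was run in all 4 arms. Counts of some tRNAs were too low to pass the filter, so a change in them could not be tested here.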

Other observations

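The ratio of mt-Co1 to mt-Cytb, both without an abundant nuclear copy, was looked at after the data were seen. Per 1000 mt-Cytb counts, mt-Co1 had 3485, 3429 and 3332 counts in the WT Ctrl T0 libraries and 2757, 2727 and 2352 in those of 2A Ctrl T0. These groups did not overlap. In replicate 1 of 2A dPOLE4 T0 the value was 3613, above all 3 WT Ctrl T0 libraries.

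The copy of mt-Nd3, Gm28438, held between 85.7% and 100% of the counts of the pair in the T0 and RA experiment and between 45.3% and 77.5% at 96 h, so that the split between the gene and its copy differed between the 2 tables in every library. In the former, mt-Nd3 was at 0 in 15 of 48 libraries. All 7 chromosome 1 copies were called lower at T60 in WT Ctrl, with log2 fold changes between -1.87 and -0.95.

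Nuclear genes annotated as rRNA held 1.79%, 2.14% and 3.30% of counts in replicate 2 of WT dPOLE4, 2A Ctrl and 2A dPOLE4 at 96 h, against 0.485% in replicate 2 of WT Ctrl at 96 h and at most 0.755% in any library of the T0 and RA experiment.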
